A study of Sus scrofa with 6 samples.

Results

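ARG1, ODC1 and SAT1 encode arginase 1, ornithine decarboxylase 1 and spermidine/spermine N1-acetyltransferase 1, which stand at the entry, the committed step and the exit of the route from arginine to the polyamines. All 3 genes were held by the annotation of the Affymetrix Porcine Genome Array, with 4 of its 10069 probe sets that carried a single gene symbol: 1 for ARG1, 2 for ODC1 and 1 for SAT1. The genes were chosen with the pressure difference already known, ARG1 having been selected on its signal on these arrays, so their own differences are given as a description with no test.

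The hypertensive group held 3 samples of porcine aortic valve leaflets kept under cyclic pressure of 0 to 120 mmHg, and the normotensive group 3 samples kept at 0 to 80 mmHg, both for 24 h at 1 Hz. All leaflets came from adult female pigs, had been stripped of endothelium with collagenase and cultured overnight in serum-supplemented medium before loading, and were whole tissue outside the animal. The sample titles call the samples of a group biological replicates. The labels do not say whether these came from separate animals, so the spread between them may be partly technical. Of the interstitial cell and fibroblast markers VIM, DCN, LUM, POSTN and the like, 10 of 12 were annotated and 9 had a mean above the filter level, a signal of 48.5 under which probe sets were left out of the fit. All 10 had lower means at hypertensive pressure, and their summed signal was 70613 to 92877 on hypertensive arrays and 99535 to 101332 on normotensive arrays. Of all 5271 genes in the fit, 45.0% had higher means. Only 2 of the 9 markers, LUM and POSTN, were lower without overlap between the groups, where 12.6% of all genes were. The groups overlapped for VIM, DCN and FN1.

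Arginase splits arginine into ornithine and urea. Ornithine decarboxylase then turns ornithine into putrescine, from which spermidine and spermine are built, and SAT1 acetylates spermidine and spermine so that they can be exported or oxidised back. Arginase draws on the same substrate as nitric oxide synthase, and ornithine also feeds proline and thus collagen synthesis, which links these enzymes to fibrous tissue. In other tissues ARG1 is known as a urea cycle enzyme of hepatocytes and as a product of activated macrophages and, in human, of granulocytes, while ODC1 and SAT1 are found in most cells.

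The 3 hypertensive arrays differed from each other. Their mean correlation with the normotensive arrays, over 14399 probe sets above the filter level, was 0.817 for replicate 1, 0.950 for replicate 2 and 0.895 for replicate 3, against 0.958 to 0.971 for the normotensive arrays with each other. The 4 probe sets of ARG1, ODC1 and SAT1 were among the 14399. Their own test is not read, as the genes were chosen with the pressure difference known. By limma, 0 of the 14399 probe sets passed an adjusted p of 0.05, while 2436 (16.9%) had an unadjusted p under 0.05. Without hypertensive replicate 2 the number that passed was 3513, and without normotensive replicate 2 it was 1. The ratio of 3' to 5' GAPDH control signal, a check of RNA quality, was 3.67, 2.91 and 6.04 on hypertensive replicates 1, 2 and 3. It was 3.02, 2.11 and 7.52 on the normotensive replicates, so replicate 3 was highest in both groups. All values below are MAS5 signals, on a linear scale fixed by the authors' scaling of each array, and differences are log2 signal, hypertensive minus normotensive.

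ARG1 signal was 8455, 4417 and 3845 on hypertensive replicates 1, 2 and 3, against 1189, 1785 and 1138 on normotensive replicates 1, 2 and 3. Every hypertensive array lay above every normotensive one, and the lowest hypertensive signal was well clear of the highest normotensive one. The means were 5572 ± 2513 at hypertensive and 1371 ± 359 at normotensive pressure (SD, n = 3 each), a log2 difference of 1.96 (SE 0.34), or 3.90 times the normotensive signal. This difference was larger than that of 99.1% of all 14399 probe sets. As ARG1 was chosen on these arrays, that rank is a description only. As these were bulk samples, a change in the number of ARG1-expressing cells and a change in RNA per cell cannot be told apart.

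The spread of ARG1 within the hypertensive group came mainly from replicate 1, whose log2 signal was 2.66 above the normotensive mean, against 1.72 and 1.52 for replicates 2 and 3. Without hypertensive replicate 1 the fold was 3.07, and without replicate 2, the array most like the normotensive ones, it was 4.25. Over all 6 ways of leaving out 1 array, the log2 difference of ARG1 lay between 1.62 and 2.19.

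SAT1 signal was 25081, 18467 and 16455 on hypertensive replicates 1, 2 and 3, against 14492, 14888 and 14902 on the normotensive replicates. The normotensive arrays were nearly equal, and all hypertensive arrays lay above them, replicate 3 only a little. The means were 20001 ± 4513 at hypertensive and 14761 ± 232 at normotensive pressure (SD, n = 3 each), a log2 difference of 0.42 (SE 0.17), or 1.33 times. Replicate 1 carried much of it: the log2 difference was 0.24 without hypertensive replicate 1 and 0.54 without hypertensive replicate 3. With quantile normalization the groups still did not overlap, but the difference was 0.27 and the gap narrowed to 0.087 for the lowest hypertensive array against 0.046 for the highest normotensive one, both as log2 signal over the normotensive mean.

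ODC1 was read by a brighter and a dimmer probe set. On the brighter one the signal was 2362, 1567 and 1488 on hypertensive replicates 1, 2 and 3, against 1643, 1943 and 1314 on the normotensive replicates. On the dimmer one it was 247, 168 and 154 on the hypertensive replicates, against 215, 162 and 146 on the normotensive replicates. The groups overlapped on both, and only hypertensive replicate 1 stood above all normotensive arrays.

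The log2 difference of ODC1 was 0.13 (SE 0.28) on the brighter probe set and 0.11 (SE 0.32) on the dimmer one. Neither has a settled direction: without hypertensive replicate 1 the differences were -0.079 and -0.096, and without normotensive replicate 3 they were -0.017 and -0.0088. The probe sets gave the same order of the hypertensive arrays but not of the normotensive ones, where replicate 2 was highest on the brighter and replicate 1 on the dimmer.

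**Figure D1:**
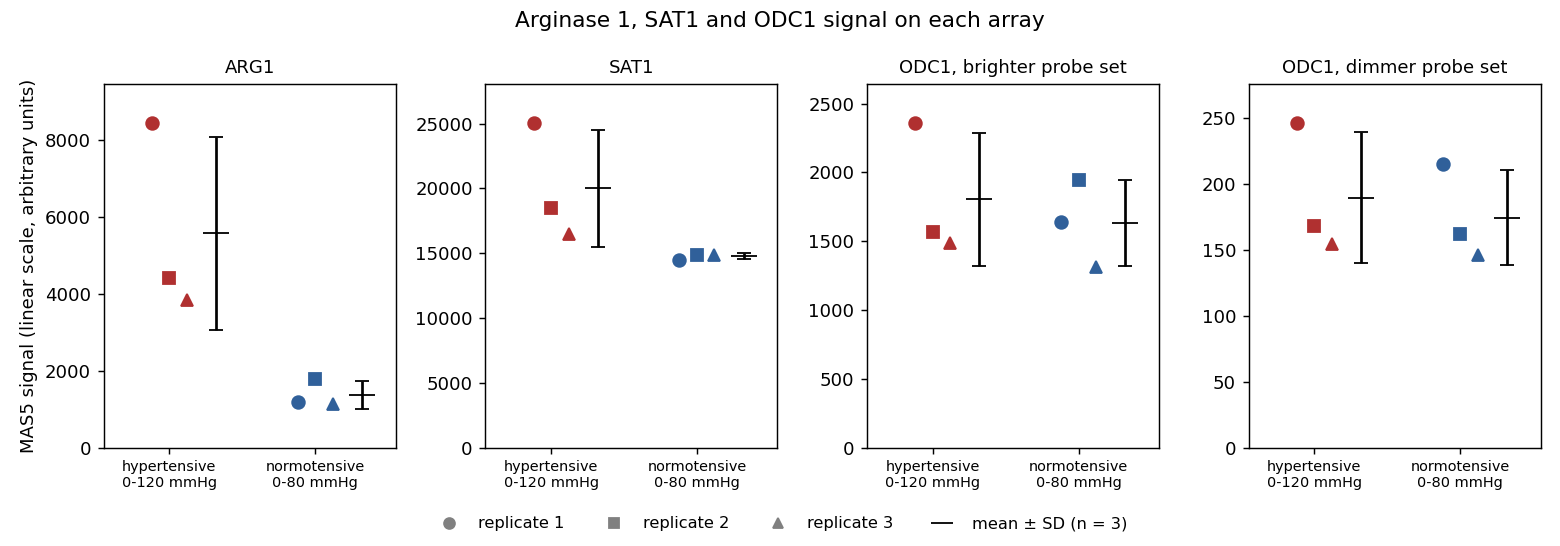
MAS5 signal (vertical axes, linear, arbitrary units, each panel with its own scale) of ARG1, SAT1 and both ODC1 probe sets on the 3 hypertensive and 3 normotensive arrays. Symbols mark replicates, and the black bar is the mean ± SD of the 3 arrays. ARG1 and SAT1 show no overlap between groups, with ARG1 at 3845 or more on hypertensive arrays and at most 1785 on normotensive arrays, while both ODC1 probe sets overlap.

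Thus 2 of the 3 genes, ARG1 and SAT1, had groups that did not overlap with the hypertensive arrays higher, where 9.28% of all 5271 genes did at their brightest probe set. Since the choice of genes used this contrast, nothing is read from that count. Hypertensive replicate 1 was the highest of its group for all 3 genes.

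Setting one gene against another on the same array removes the scaling of the arrays. The log2 signal of ARG1 minus that of ODC1, each array taken relative to the normotensive mean, was 2.11, 1.76 and 1.63 on hypertensive replicates 1, 2 and 3, against -0.20, 0.14 and 0.058 on the normotensive replicates. The hypertensive arrays lay closer together on this measure than for ARG1 alone, and the groups stayed apart. Set against the aminotransferase gene OAT they did not lie closer. ARG1 minus OAT was 2.77, 1.60 and 1.35 on the hypertensive arrays, against -0.067, 0.18 and -0.11 on the normotensive arrays, also without overlap. For SAT1 minus ODC1 the values were 0.21, 0.36 and 0.27 on the hypertensive arrays, against -0.053, -0.26 and 0.31 on the normotensive arrays, so the groups overlapped through normotensive replicate 3. Relative to ODC1, ARG1 thus differed between the groups by 1.83 (pooled SD 0.21), and SAT1 by 0.28 (pooled SD 0.21). As ARG1 was chosen on these arrays, its value is a description only.

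**Figure D2:**
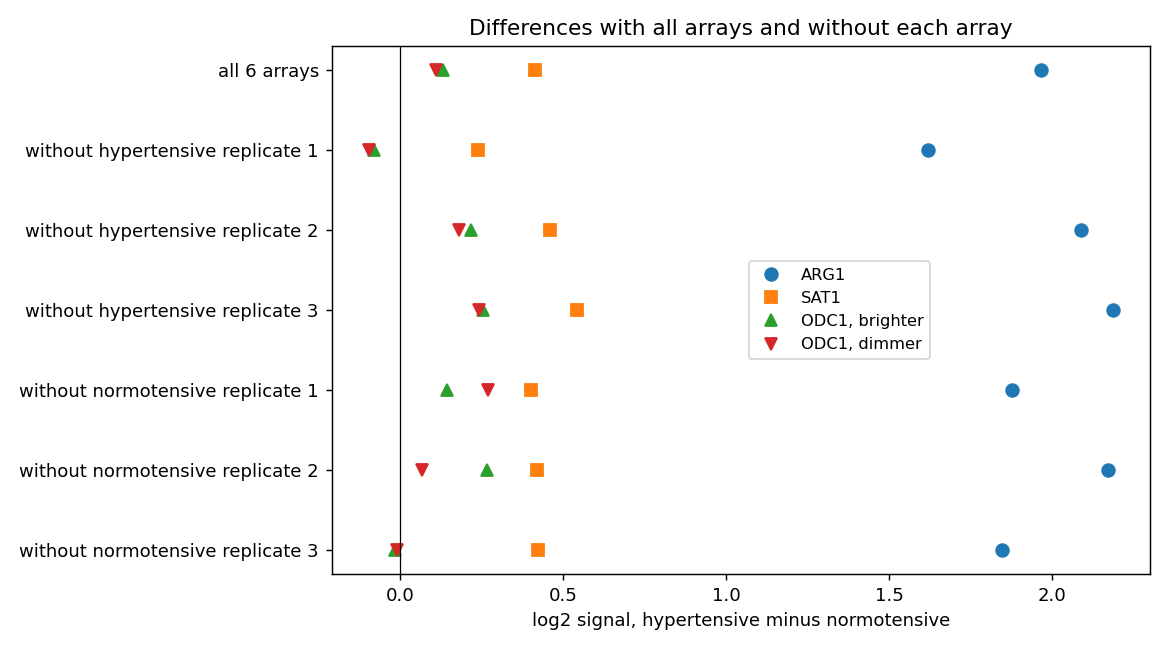
Log2 difference, hypertensive minus normotensive (horizontal axis), of ARG1, SAT1 and the brighter and dimmer ODC1 probe sets with all 6 arrays and without each array in turn (rows). ARG1 stays between 1.62 and 2.19 and SAT1 between 0.24 and 0.54, while both ODC1 probe sets fall on either side of 0.

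Markers of other cells that the leaflets could hold were read beside ARG1. Of 10 granulocyte markers 6 were annotated, and all 6 had higher means at hypertensive pressure. Their summed signal was 1220, 675 and 827 on hypertensive replicates 1, 2 and 3, against 557, 885 and 394 on the normotensive replicates, so the groups overlapped. The brightest of the 6 on every array was FCGR3A, at 499, 442 and 552, against 404, 756 and 281, with overlap. ELANE, S100A8 and S100A12 lay below the filter level on all 6 arrays. LTF, which encodes lactoferrin, was at 255, 106 and 127 on the hypertensive arrays, against 47.2, 63.5 and 34.6 on the normotensive arrays, with no overlap. S100A9 was at 342, 25.6 and 76.7 on hypertensive arrays, against 18.0, 7.76 and 20.2 on normotensive arrays, with no overlap but mostly below or near the filter level. The part of such cells in the ARG1 result was not tested.

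Macrophage markers were divided. With 6 of 10 annotated, 3 had higher and 3 lower means at hypertensive pressure. Their summed signal was 811, 4216 and 2252 on hypertensive replicates 1, 2 and 3, against 3283, 5068 and 2774 on the normotensive replicates. It was lowest on hypertensive replicate 1, and the integrin gene ITGAM lay below the filter level on all arrays. The part of macrophages in the ARG1 result was not tested. The sum was carried mostly by CD163 and MRC1. The scavenger receptor gene CD163, on its brightest probe set, was at 270, 1794 and 875 on hypertensive replicates 1, 2 and 3, against 1497, 2261 and 1294 on the normotensive replicates, and a further CD163 probe set was at 95.5, 82.7 and 187, against 85.4, 69.9 and 46.7. The mannose receptor gene MRC1 was at 182, 1524 and 882 on the hypertensive arrays, against 1013, 1794 and 1015 on the normotensive arrays. Replicate 2 thus lay inside the normotensive range of both genes. The monocyte gene CD14 was at 68.6, 115 and 51.0 on the hypertensive arrays, against 41.3, 61.5 and 26.4 on the normotensive arrays, with overlap. A further CD14 probe set, left out by the filter, was at 29.6, 55.2 and 29.9, against 8.79, 5.32 and 4.56, with no overlap.

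Of 10 lymphocyte and leukocyte markers 7 were annotated, 5 with higher and 2 with lower means. They summed to 330, 278 and 235 on the hypertensive arrays, against 235, 325 and 224 on the normotensive arrays, and CD2, CD3D, CD3E and CD79B lay below the filter level on all arrays. The pan-leukocyte gene PTPRC was lower without overlap, at 36.9, 52.6 and 15.3 on the hypertensive arrays, against 55.8, 127 and 66.0 on the normotensive arrays. The leukocyte coronin gene CORO1A was higher without overlap, at 173, 107 and 102 on the hypertensive arrays, against 70.2, 93.7 and 55.3. A further CORO1A probe set was at 150, 67.8 and 19.6, against 148, 160 and 108, with overlap. Another one, left out by the filter, was at 65.4, 26.1 and 21.1, against 4.64, 9.85 and 10.0, with no overlap. All 6 hepatocyte markers were annotated, and they summed to 1354, 864 and 702 on the hypertensive arrays, against 565, 1457 and 392 on the normotensive arrays. Of these, ALB, OTC and TTR lay below the filter level on all arrays. All 10 endothelial markers were annotated, 5 with higher and 5 with lower means. They summed to 3927, 3045 and 2050 on the hypertensive arrays, against 2502, 3060 and 2493 on the normotensive arrays. Among them SELP and CDH5 were higher and ERG lower without overlap. The CDH5 probe set, left out by the filter, was at 68.4, 115 and 84.9 on the hypertensive arrays, against 30.3, 12.3 and 40.5. A further CDH5 probe set, also left out, had overlapping groups. Of 5 erythroid markers 2 were annotated, summing to 1814, 1119 and 2473, against 1493, 1356 and 1558. The part of any of these cells in the ARG1 result was not tested.

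Beyond ARG1, ODC1 and SAT1, 74 genes of arginine, polyamine, transport, methionine and nitric oxide metabolism were listed, of which 46 were annotated and 37 passed the filter on low signal. By limma, 0 of the 37 passed, and at an unadjusted p under 0.05 there were 3 with higher and 6 with lower signal, against 6.85% and 10.2% of all 5271 genes. The groups did not overlap in 3 higher and 5 lower genes, together 21.6%, where 9.28% of all genes were higher without overlap and 12.6% lower, together 21.9%. Without hypertensive replicate 2, limma called 4 genes of the arginine and ornithine enzymes, 2 of the polyamine genes, 1 of transport, 2 of the methionine genes and 1 of nitric oxide synthesis, together 10 of 37 (27.0%), where it called 25.9% of all genes. The median log2 difference with all arrays was -0.11, against -0.068 over all genes. The share of these genes without overlap was thus close to that of all genes.

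**Figure D3:**
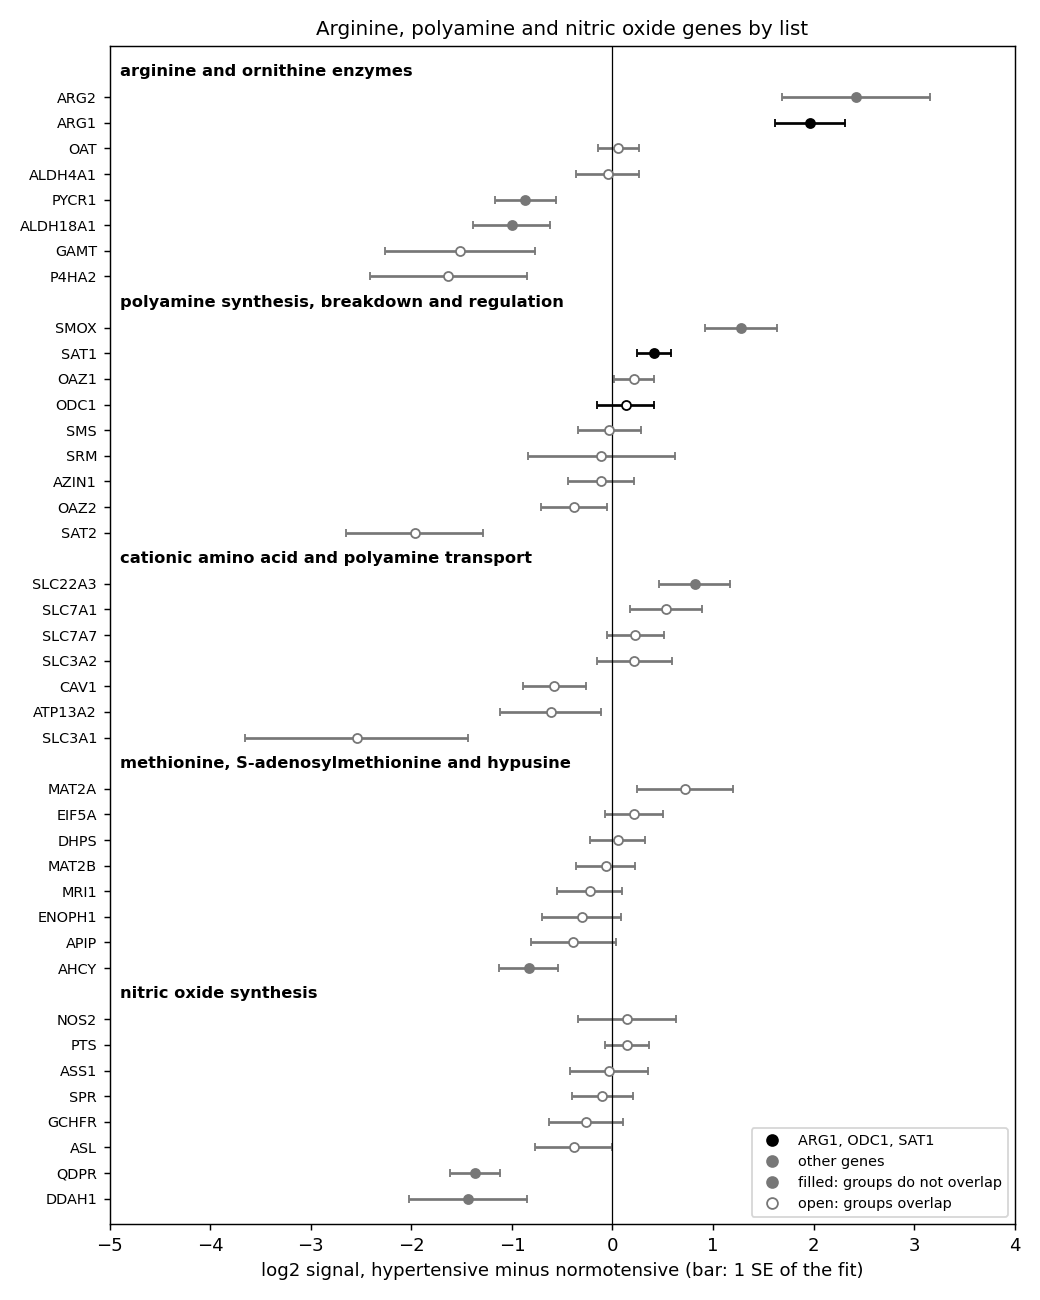
Log2 difference, hypertensive minus normotensive (horizontal axis, bar 1 SE of the fit), of every measured gene of the 5 lists at its brightest probe set. Black points are ARG1, ODC1 and SAT1, grey points the other genes, and filled points mark groups that do not overlap. ARG2 and ARG1 stand farthest to the right, at 2.42 and 1.96, and SMOX at 1.28 is the highest of the polyamine list.

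Of the list of arginine and ornithine enzymes without ARG1, which also held genes of linked routes such as proline synthesis, 10 of 17 were annotated and 7 measured. The 2 higher were ARG2 and OAT, and the 5 lower were ALDH4A1, PYCR1, ALDH18A1, GAMT and P4HA2. By limma 0 were past the threshold (adjusted p from 0.256 to 0.946). ARG2, the mitochondrial arginase, was read on its brightest probe set at 1401, 160 and 597 on hypertensive replicates 1, 2 and 3, against 115, 56.6 and 133 on the normotensive replicates. All hypertensive arrays lay above all normotensive ones, replicate 2 only just. The log2 difference of ARG2 was 2.42 (SE 0.73, limma adjusted p = 0.256), and it depended on the array left out: 3.26 without hypertensive replicate 2, where it passed (adjusted p = 0.00537), and 1.70 without hypertensive replicate 1. A further ARG2 probe set had a difference of 1.25 with overlapping groups and another one of -0.25, so the probe sets did not all share a direction.

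OAT, the aminotransferase that sends ornithine towards proline, was at 3587, 4223 and 4379 on the hypertensive arrays, against 3605, 4573 and 3553 on the normotensive arrays. The groups overlapped throughout, with a log2 difference of 0.060 (SE 0.21, adjusted p = 0.893) that was -0.0043 without normotensive replicate 3. ALDH18A1, which makes the precursor of proline and ornithine from glutamate, was at 430, 1189 and 822 on the hypertensive arrays, against 1398, 1715 and 1409 on the normotensive arrays. PYCR1, which completes proline, was at 172, 114 and 120 on the hypertensive arrays, against 289, 222 and 222 on the normotensive arrays. In both genes every hypertensive array was below every normotensive one, with log2 differences of -1.00 (SE 0.38) and -0.87 (SE 0.30) that did not pass (adjusted p = 0.278 and 0.269). ALDH18A1 passed without hypertensive replicate 2, at -1.34 (adjusted p = 0.0217).

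Of the other genes of polyamine synthesis, breakdown and control, 7 of 10 were annotated and all 7 were measured, with 2 higher, 5 lower, and 0 past the threshold (adjusted p from 0.238 to 0.966). SMOX, the spermine oxidase that turns spermine back to spermidine and releases hydrogen peroxide, was at 3730, 2044 and 3031 on hypertensive replicates 1, 2 and 3, against 1569, 754 and 1370 on the normotensive replicates. The groups did not overlap, and the log2 difference was 1.28 (SE 0.36, adjusted p = 0.238). SMOX was read by 4 probe sets, with differences of 1.28, 1.60, 1.61 and 1.29, and on each of them the groups did not overlap. These probe sets share the same arrays and are not separate replicates. Without hypertensive replicate 2 the brightest passed, at 1.52 (adjusted p = 0.0177).

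SAT2, the relative of SAT1, was at 47.9, 381 and 83.2 on the hypertensive arrays, against 496, 509 and 360 on the normotensive arrays. Replicates 1 and 3 were far below the normotensive range and replicate 2 inside it. The log2 difference of SAT2 was -1.97 (SE 0.68, adjusted p = 0.269), -2.83 without hypertensive replicate 2, where it passed (adjusted p = 0.00326), and -1.34 without hypertensive replicate 1.

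**Figure D4:**
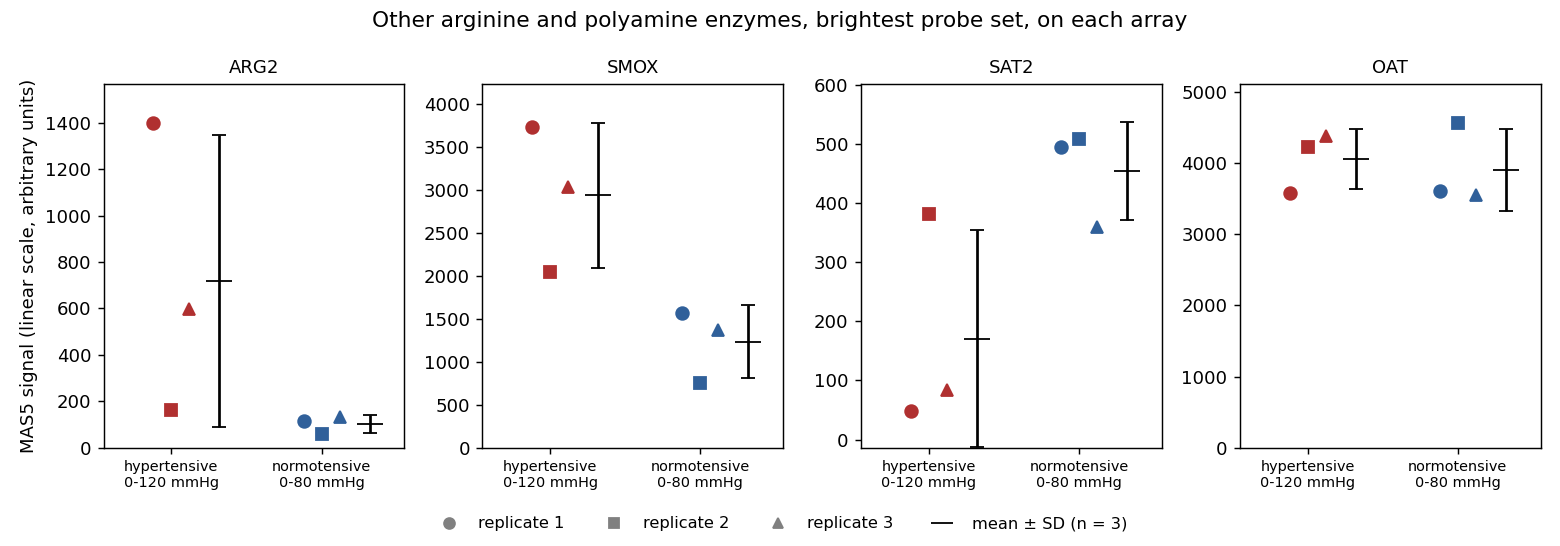
MAS5 signal (vertical axes, linear, arbitrary units, each panel with its own scale) of ARG2, SMOX, SAT2 and OAT at their brightest probe set on the 3 hypertensive and 3 normotensive arrays, with the mean ± SD in black. ARG2 and SMOX lie higher on every hypertensive array, SAT2 is lower on replicates 1 and 3 only, and OAT overlaps between 3553 and 4573.

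The synthases that follow ODC1 had overlapping groups. SRM, spermidine synthase, was at 236, 24.6 and 101 on the hypertensive arrays, against 113, 75.1 and 87.7 on the normotensive arrays. Its log2 difference of -0.11 (SE 0.73, adjusted p = 0.946) was 0.77 without hypertensive replicate 2 and -0.86 without hypertensive replicate 1, so it has no settled direction. SMS, spermine synthase, was at 139, 234 and 221 on the hypertensive arrays, against 203, 224 and 169 on the normotensive arrays (log2 difference -0.032, SE 0.31, adjusted p = 0.966), and its sign turned with quantile normalization.

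The proteins that control ornithine decarboxylase were read as well. OAZ1, the antizyme that binds ornithine decarboxylase and sends it to the proteasome, was at 9500, 7559 and 6868 on the hypertensive arrays, against 7085, 7687 and 5795 on the normotensive arrays, with overlapping groups (log2 difference 0.21, SE 0.20, adjusted p = 0.565). OAZ2, a second antizyme, had a log2 difference of -0.38 (SE 0.33, adjusted p = 0.541). AZIN1, the inhibitor that takes antizyme away from the enzyme, had a difference of -0.11 (SE 0.33, adjusted p = 0.871) on its brightest probe set. On a further AZIN1 probe set the signal was 661, 512 and 650 on the hypertensive arrays, against 412, 365 and 459 on the normotensive arrays, with no overlap and a difference of 0.56 (SE 0.27, adjusted p = 0.317), so the probe sets disagree.

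Of 18 transport genes 9 were annotated and 7 measured, with 4 higher, 3 lower, and 0 past the threshold (adjusted p from 0.294 to 0.769). SLC7A1, the main importer of arginine in many cells, was at 3365, 1687 and 3461 on the hypertensive arrays, against 2136, 1330 and 2289 on the normotensive arrays (log2 difference 0.53, SE 0.36, adjusted p = 0.433). Hypertensive replicate 2 lay inside the normotensive range. SLC22A3, an organic cation transporter, had a log2 difference of 0.82 (SE 0.35, adjusted p = 0.294) without overlap.

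Nitric oxide synthase uses the substrate of arginase, and of its 15 listed genes 10 were annotated and 8 measured, with 2 higher, 6 lower, and 0 past the threshold (adjusted p from 0.164 to 0.971). NOS2, the inducible synthase, was at 112, 44.5 and 50.0 on the hypertensive arrays, against 90.1, 40.7 and 50.1 on the normotensive arrays. These signals were near the filter level and overlapped (log2 difference 0.15, SE 0.49, adjusted p = 0.887), and the sign turned without hypertensive replicate 1. NOS3, the endothelial synthase, was left out by the filter. ASS1, which rebuilds arginine from citrulline together with ASL, had a difference of -0.034 (SE 0.39, adjusted p = 0.971) whose sign turned with a common median.

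DDAH1, which degrades methylarginines that inhibit nitric oxide synthase, was at 212, 887 and 982 on the hypertensive arrays, against 1985, 1027 and 1790 on the normotensive arrays. The groups did not overlap, and the log2 difference of -1.43 (SE 0.59, adjusted p = 0.283) was -0.72 without hypertensive replicate 1. QDPR, which regenerates the tetrahydrobiopterin cofactor, had a difference of -1.37 (SE 0.25, adjusted p = 0.164) on its brightest probe set. That probe set passed without hypertensive replicate 2 (adjusted p = 0.00508). A further QDPR probe set had overlapping groups, at -0.68 (SE 0.41, adjusted p = 0.395). In the list of methionine, S-adenosylmethionine and hypusine genes, 10 of 14 were annotated and 8 measured, with 3 higher, 5 lower, and 0 past the threshold (adjusted p from 0.269 to 0.931). At the brightest probe set, AHCY, which clears S-adenosylhomocysteine, was the gene of that list without overlap, at a log2 difference of -0.83 (SE 0.29). A further AHCY probe set had overlapping groups, at -0.41 (SE 0.38).

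Genes of similar pattern were ranked by the root mean square difference from each gene over the 6 arrays, in log2 signal centred on each gene's own normotensive mean, among the other 5270 genes. Nearest to ARG1 were XAF1, an apoptosis-associated gene, at 0.15, the peptide-loading chaperone TAPBP at 0.23, the lactoferrin gene LTF at 0.26, the NF-kB inhibitor NFKBIA at 0.30 and the death-receptor regulator CFLAR at 0.31, where the median gene was at 1.53. XAF1 was at 1482, 771 and 660 on hypertensive replicates 1, 2 and 3, against 219, 244 and 187 on the normotensive replicates. Like ARG1, each of these genes was highest on hypertensive replicate 1 and higher on every hypertensive than on every normotensive array.

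Nearest to SAT1 were IRF2 at 0.068, INPPL1 at 0.072, LAP3 at 0.076, ANAPC2 at 0.092 and the thioredoxin gene TXN at 0.096, where the median gene was at 0.57. TXN was at 22186, 15296 and 16901 on the hypertensive arrays, against 13264, 13381 and 12956 on the normotensive arrays. Nearest to ODC1 were the tubulin gene TUBA1B at 0.037, TPGS2 at 0.069, PANK4 at 0.074, LRRC41 at 0.090 and FAF2 at 0.093, where the median gene was at 0.53. TUBA1B was at 14870, 10368 and 9801 on the hypertensive arrays, against 10807, 13074 and 8275 on the normotensive arrays, in the same order of arrays as the brighter ODC1 probe set. The 3 sets of nearest genes shared no gene. They rest on 6 arrays and were picked for likeness, so no test is given.

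**Figure D5:**
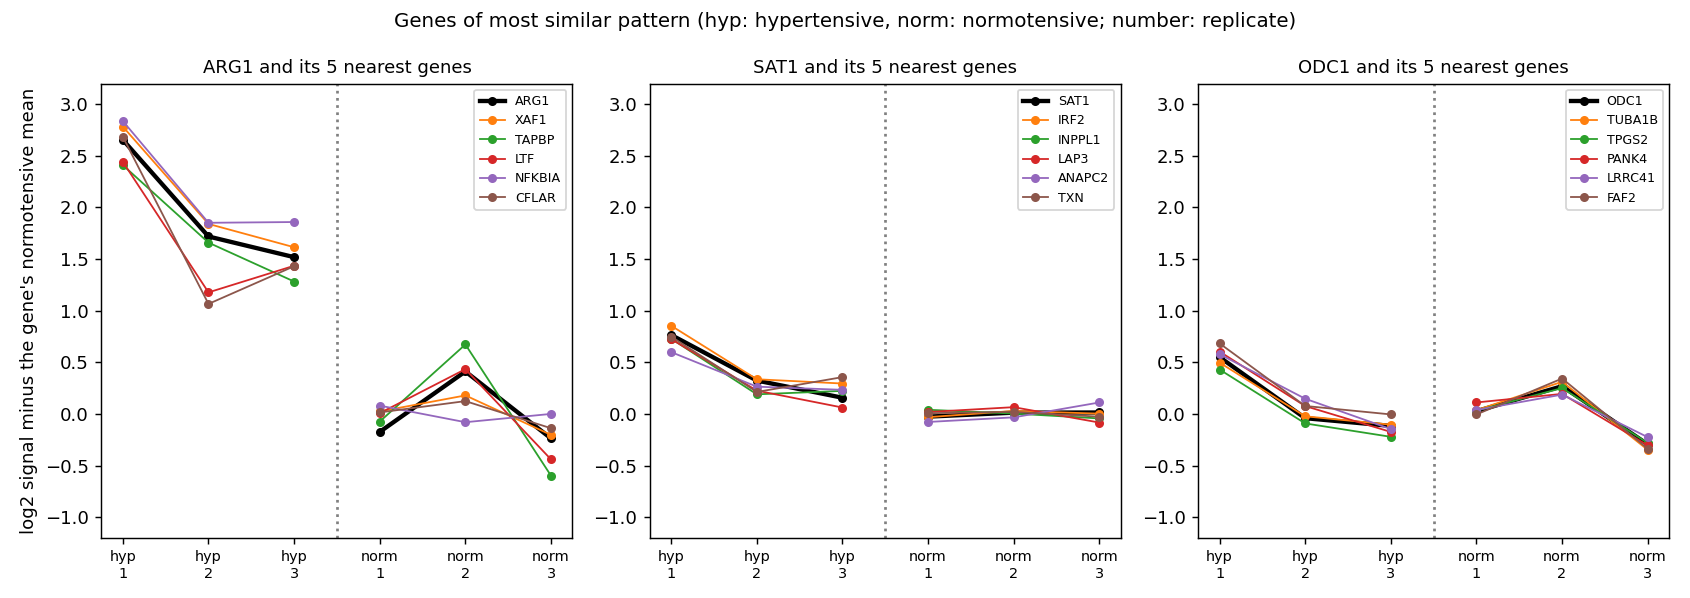
Log2 signal minus the gene's normotensive mean (vertical axis) on each array (horizontal axis) for ARG1, SAT1 and ODC1 in black and the 5 genes nearest to each in colour. Lines only join the points of a gene within a group. ARG1 and its nearest genes lie above 1 on all hypertensive arrays, SAT1 and its nearest genes are near 0 on normotensive arrays, and ODC1 and its nearest genes lie above the normotensive range on hypertensive replicate 1 only.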

How the data were processed

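Transcript levels were measured on 6 Affymetrix porcine arrays, 3 per pressure. The deposited values are signal intensities, 1 per probe set and array, made by the authors with GCOS and MAS5 per the submitters' processing notes, with no version named there. The 2% trimmed mean was 500.11 to 500.131, which shows a common scaling of the arrays. No detection calls were used, and precision is limited by the number of arrays.

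The platform annotation gave 1 symbol for 10069 of the 23999 probe sets that are not controls, several for 198 and none for 13732. Intensities were taken to log2. Probe sets at or above the 40th percentile of mean log2 intensity (signal 48.5) were kept: 14399, or 5271 genes at their brightest probe set. The pressure contrast was fitted in R 4.3.3 with limma 3.58.1, using lmFit and a trended eBayes, and 2-sided p-values were adjusted by Benjamini-Hochberg across the kept probe sets at a threshold of 0.05. The fit was tested on simulated data. The genes named were ARG1, ODC1 and SAT1, a fixed set of direct pathway partners, up to 6 further genes per list whose groups did not overlap, and the 5 nearest genes by pattern. Further probe sets and the cell type markers named were chosen after their values were seen. The members and lists were chosen with earlier results of these data known. Alternatives were quantile normalization, a common median, other filters, pseudocounts of 16 and 64, no trend, array weights, a replicate block, each array left out, and the mean over probe sets. Same-numbered samples had deviations correlated at 0.059, 0.072 and 0.23, not all above 0.1, so the numbers were not taken to pair samples. No sequence was used.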

Additional observations from a re-analysis of the deposited data

Results flagged for a closer look

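The filter on low signal left 17 probe sets of the 5 lists out of the reported fit. Of these, 2 lay above all normotensive arrays on all 3 hypertensive arrays, with a mean at least 2 times theirs. Both also had at least 1 hypertensive array at or above the filter level. The share of all left-out probe sets that met this rule was not computed, so nothing is read from the count. The CPS1 probe set, for the carbamoyl phosphate synthetase of the urea cycle, was at 18.9, 46.1 and 71.7 on hypertensive replicates 1, 2 and 3, against 8.01, 8.07 and 8.42 on the normotensive replicates, a ratio of means of 5.58. A second OAZ1 probe set was at 50.2, 19.6 and 44.6 on the hypertensive arrays, against 8.26, 12.5 and 2.69 on the normotensive arrays, a ratio of 4.89, where the bright OAZ1 probe set showed overlapping groups. Most of these signals lie below the filter level of 48.5, where MAS5 values are least certain.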

How the results depend on the processing

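The log2 differences of ARG1 and SAT1 kept their sign under every alternative run, at 1.77 to 2.02 and 0.25 to 0.47 apart from arrays left out. With array weights ODC1 was at -0.29 on the dimmer and -0.054 on the brighter probe set. With array weights 5639 probe sets passed instead of 0, and 5, 3, 4, 3 and 2 genes of the arginine, polyamine, transport, methionine and nitric oxide lists, together 45.9% of 37 genes against 40.7% of all genes. Over the arrays left out in turn, probe sets passing ran from 0 to 3513 (without hypertensive replicate 2), and genes of the same lists from 0 to 4, 2, 1, 2 and 1. SMS turned to 0.062 with quantile normalization, 0.027 with a common median and 0.079 with array weights, ASS1 to 0.025 with a common median and 0.23 with array weights, SRM to 0.079 with a pseudocount of 64, and AZIN1 to 0.26 and NOS2 to -0.52 with array weights. Leaving out 1 array gave ranges that crossed 0 for SMS (-0.17 to 0.20), ASS1 (-0.28 to 0.29), SRM (-0.86 to 0.77), AZIN1 (-0.33 to 0.24), NOS2 (-0.27 to 0.48) and OAT (-0.0043 to 0.18). The cause was not tested. With the replicate block 0 probe sets passed, and 2865 against 2436 had an unadjusted p under 0.05; each hypertensive array correlated best with the normotensive array of its own number, a hint from the data only. The median of all probe sets was -0.041, -0.0083 with quantile normalization and 0.018 with a common median. Signals near the filter level limit what can be read for NOS2, ASS1 and SRM.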

Other observations

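In several listed genes with lower means at hypertensive pressure, replicates 1 and 3 lay far below the normotensive range while hypertensive replicate 2 lay inside it or above it; these genes were chosen after their values were seen. P4HA2, a subunit of the prolyl hydroxylase that modifies collagen, was at 532, 5597 and 751 on hypertensive replicates 1, 2 and 3, against 4192, 5085 and 3116 on the normotensive replicates (log2 difference -1.63, SE 0.78, limma adjusted p = 0.318). SLC3A1, a subunit of a cationic amino acid transporter, was at 16.5, 669 and 111 on the hypertensive arrays, against 746, 536 and 604 on the normotensive arrays (log2 difference -2.54, SE 1.11, adjusted p = 0.295). SAT2 had the same order of the hypertensive arrays. A further SLC3A1 probe set did not show this pattern, at 30.2, 43.3 and 57.1, against 83.3, 42.2 and 87.5. ARG1, in contrast, was far above the normotensive range on replicate 2 as well, at 4417.

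MAT2A, which makes S-adenosylmethionine, had its hypertensive arrays on both sides of the normotensive range, at 3481, 1048 and 3568 on the hypertensive arrays, against 1277, 1856 and 1229 on the normotensive arrays (log2 difference 0.72, SE 0.48, adjusted p = 0.430). Hypertensive replicate 2 was below all normotensive arrays there and replicates 1 and 3 above them.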
